A study of Homo sapiens with 12 samples.

Results

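The genes described here are 45 genes of the lysosome and of autophagy, measured by RNA-sequencing in A375 cells, an established BRAF-mutant melanoma cell line. They were listed by name for their function, with earlier results of these data known, and they are 45 of the 58347 genes in the count files. All 45 passed the filter on low counts, which kept 16740 genes in all. The study treated A375 cells for 8 h with vehicle (DMSO), tretinoin, vemurafenib or the vemurafenib + tretinoin combination, with 3 replicates per group and 12 samples in total. Every sample, vehicle included, is listed at a dose of 5 µM. Tretinoin (all-trans retinoic acid) activates the retinoic acid receptors, and vemurafenib blocks mutant BRAF. The labels state that each treatment was applied in triplicate but not whether the replicates were independent cultures, so the p-values measure the spread between these samples. All values come from 1 cell line at 1 time after treatment.

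Lysosomes are acidic organelles in which proteases, glycosidases and lipases break down material delivered by endocytosis and autophagy. In autophagy, a membrane is started by the ULK1 kinase and lipid kinase complexes, extended with the help of the ATG proteins, coated with LC3 and GABARAP proteins and closed around its cargo before it fuses with a lysosome. The transcription factors TFEB and TFE3 of the MiT family, to which the melanocyte factor MITF also belongs, bind an E-box motif in the promoters of many of these genes and are held in the cytoplasm when mTORC1 is active at the lysosomal surface.

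Each library held from 13510235 to 21534377 counts. Known target genes of the drugs were checked first. DUSP6, a phosphatase induced by ERK signalling, fell by 6.07 on the log2 scale with vemurafenib (SE 0.130, edgeR adjusted p = 9.36e-16), and DHRS3, a retinoid-metabolising enzyme, rose by 2.91 with tretinoin (SE 0.0940, adjusted p = 1.9e-12). All 4 ERK output genes checked were lower with vemurafenib. Of 4 retinoic acid response genes, 2 were higher and 0 lower with tretinoin (3.48% and 2.2% of all genes). With vemurafenib, 2 of those 4 were higher and 1 lower (26.4% and 26.3% of all genes). Of 7 melanocyte lineage markers, SOX10, MLANA, TYR and DCT did not pass the filter, with SOX10 at 0 counts in all 12 samples, while MITF, PMEL and S100B passed. The 7 markers summed to between 425 and 491 counts in the DMSO samples, 352 and 492 with tretinoin, 721 and 875 with vemurafenib, and 711 and 872 with the combination. Of 5 markers of other cell types, CD3E, EPCAM and ALB did not pass and PTPRC and PECAM1 did, with 13 to 83 and 5 to 36 counts per sample. All 5 summed to between 32 and 57 counts with DMSO, 61 and 100 with tretinoin, 64 and 83 with vemurafenib, and 87 and 106 with the combination. PTPRC, a leukocyte marker, was higher than with DMSO by 1.46 with tretinoin, 1.36 with vemurafenib and 1.77 with the combination (log2, adjusted p = 0.0121, 0.00161 and 9.51e-05). PECAM1, an endothelial marker, was not called against DMSO, with log2 fold changes of 0.81, -0.83 and -0.65. The part of these markers in the results below was not tested. As the samples are bulk RNA, fewer cells of a kind and less RNA per cell cannot be told apart.

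Tretinoin replicate 1 stood apart from its group. Over all genes, the chi-square per degree of freedom between 2 samples, larger when they differ more, was 19.134 and 21.817 against tretinoin 2 and 3. It was 2.556 between tretinoin 2 and 3, and from 2.632 to 8.38 between replicates of the other groups. For 34 of the 45 genes tretinoin 1 lay further from the mean of the other tretinoin replicates than those lay from each other. That count was not set against other samples. The median coefficient of variation over the 45 genes was 7.11% in the tretinoin group and 3.05% without that replicate, against 5.38% with DMSO, 4.66% with vemurafenib and 4.91% with the combination. Leaving out the most distant of 3 replicates lowers this value by itself. For the 45 genes, the calls that involve the tretinoin group are given with and without replicate 1.

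Because TFEB and TFE3 bind E-boxes, the promoters were searched for the motif CACGTG and for the longer motif TCACGTGA, which contains it. Each promoter window held 300 bases, from 250 before to 50 after the annotated start (RefSeq, GRCh38.p14), and both motifs read the same on either strand. CACGTG was present in 7.26% and TCACGTGA in 0.98% of the 35116 windows of all genes. These windows were not limited to genes that passed the count filter, as all 45 genes did, so the shares are not matched for expression. Windows were available for 35 of the 45 genes, which had 42 windows in all. Of these 42 windows, 9 held CACGTG (21.4%) and 5 held TCACGTGA (11.9%). Counted as genes, 9 of the 35 held CACGTG, namely FNIP1, NEU1, CTSD, CTSF, LAMP1, ATP6V0D1, GAA, MCOLN1 and CTSA, while 5 of the 9 held TCACGTGA. The stretches around the motif are shown for 7 genes, chosen by their calls against DMSO. NEU1, CTSA, CTSD and GAA are among those higher with vemurafenib and with the combination. LAMP1 was called with the combination and not with vemurafenib, and ATP6V0D1 and MCOLN1 were called in neither. CTSF, higher with both treatments, and FNIP1, higher with vemurafenib and not called with the combination, are not shown. The sequences run 5′ to 3′ along the strand of the gene, with CACGTG in capitals.
NEU1 (chr6:31862930-31862959, minus strand): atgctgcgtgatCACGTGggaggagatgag
CTSA (chr20:45891281-45891327, plus strand): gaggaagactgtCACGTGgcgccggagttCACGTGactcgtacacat
CTSD (chr11:1763957-1763986, minus strand): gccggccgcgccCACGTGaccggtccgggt
GAA (chr17:80101493-80101567, plus strand): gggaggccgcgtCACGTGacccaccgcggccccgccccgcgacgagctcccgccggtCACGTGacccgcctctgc
LAMP1 (chr13:113297035-113297255, plus strand): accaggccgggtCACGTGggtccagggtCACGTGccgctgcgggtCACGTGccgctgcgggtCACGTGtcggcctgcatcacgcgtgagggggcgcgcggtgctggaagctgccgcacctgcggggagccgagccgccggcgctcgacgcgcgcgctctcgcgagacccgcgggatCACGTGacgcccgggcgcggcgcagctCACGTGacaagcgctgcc
ATP6V0D1 (chr16:67481199-67481228, minus strand): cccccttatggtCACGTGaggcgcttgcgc
MCOLN1 (chr19:7522571-7522627, plus strand): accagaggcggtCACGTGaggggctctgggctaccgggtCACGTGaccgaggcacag

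The LAMP1 window held 6 copies of CACGTG and those of GAA, MCOLN1, CTSA, CTSF and FNIP1 held 2 each. Of the 9 genes with CACGTG, 6 were higher and 0 lower with vemurafenib than with DMSO at an edgeR adjusted p under 0.05, a call that 26.4% and 26.3% of all genes tested received. With the combination the counts were also 6 and 0, where 27.1% and 26.5% of all genes were called. Their median log2 fold change was 0.27 with vemurafenib and 0.37 with the combination. Of the 26 genes whose window lacked the motif, 8 were higher and 8 lower with vemurafenib (median 0.05), and 9 were higher and 6 lower with the combination (median 0.06). The genes with TCACGTGA were not those that moved most: of these 5, 2 were higher with vemurafenib and 3 with the combination, and the log2 fold change of MCOLN1, the lysosomal calcium channel mucolipin-1, was -0.26 with vemurafenib (adjusted p = 0.0546). These counts describe letters in the windows and no binding was measured.

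The question for the whole group was how far each treatment moved it. Vemurafenib raised 17 and lowered 9 of the 45 genes relative to DMSO (edgeR quasi-likelihood test, adjusted p under 0.05 over all 16740 genes), which is 37.8% and 20.0% of them. Over all genes tested, 26.4% were higher and 26.3% lower in the same comparison. The combination raised 19 and lowered 7, or 42.2% and 15.6%, where 27.1% of all genes were higher and 26.5% lower. The median log2 fold change of the 45 genes was 0.08 with vemurafenib and 0.11 with the combination, against 0.02 and 0.03 over all genes. Tretinoin raised 2 and lowered 0, where 3.48% of all genes were higher and 2.2% lower, and the median was 0.04 against 0.01.

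Most of the 45 genes were well expressed, and genes at such levels behaved differently from genes as a whole. Among the 5912 genes at or above the level of the lower quartile of the group (33.9 CPM, a library-scaled count), 16.3% were higher and 44.1% lower with vemurafenib, and 16.8% were higher and 44.4% lower with the combination. The role lists below are set beside the shares over all genes and not beside the shares at this level. The scaling of the libraries also moved the balance. The TMM factors were between 0.9012 and 0.955 with DMSO, 0.9575 and 1.0112 with tretinoin, 1.0527 and 1.0736 with vemurafenib, and 1.0272 and 1.046 with the combination. Scaled by total counts alone, the median of all genes moved to 0.21 with vemurafenib and 0.19 with the combination. Calls over the 16740 genes tested then went from 8811 to 9203 with vemurafenib and from 8977 to 9158 with the combination. The share of these calls that were higher went from 50.1% to 71.4% with vemurafenib and from 50.5% to 68.2% with the combination. Under that scaling the group had 28 genes higher and 3 lower with vemurafenib and 27 higher and 4 lower with the combination. The changes below are thus relative to the TMM scaling, and no called gene of the group changed direction between the scalings. Under total counts, however, ATG5, GABARAPL2 and GLA were no longer called with either vemurafenib or the combination, nor were BECN1, MAP1LC3B and NPC2 with vemurafenib.

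The comparisons against DMSO share the same 3 DMSO samples, so their calls are set side by side and are not independent. TFEB and FNIP1 were higher with vemurafenib but not called with the combination, NPC2 and MAP1LC3B were lower with vemurafenib but not called with the combination, and LAMP1, CTSB, TPP1 and GUSB were higher with the combination and not called with vemurafenib. Of these 8 genes, TFEB was the one for which the difference between the combination and vemurafenib itself passed the test.

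**Figure D1:**
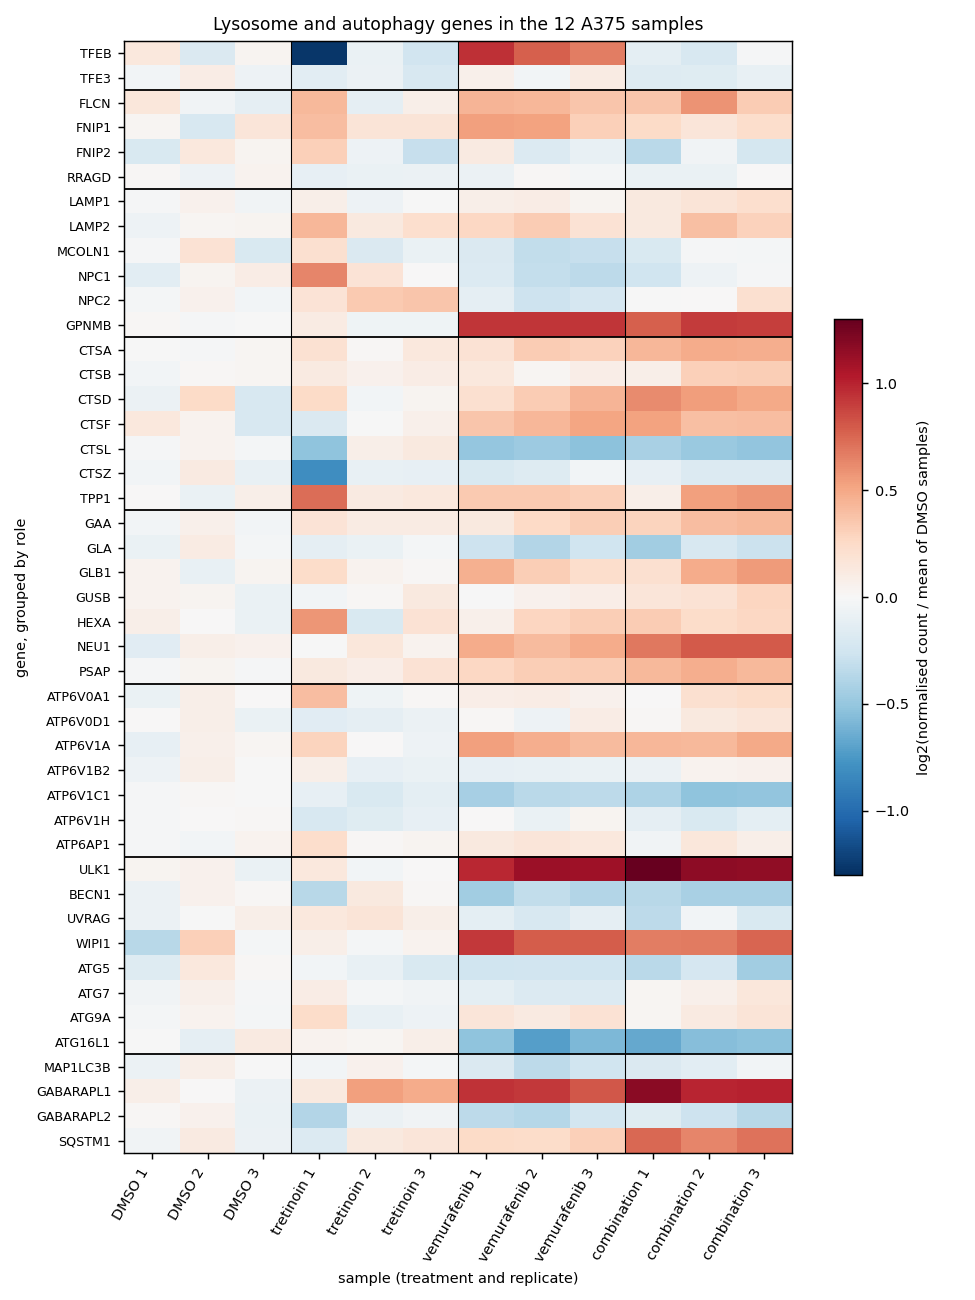
The 45 genes (rows, grouped by role) in the 12 samples (columns, treatment and replicate), coloured by the log2 ratio of the normalised count to the mean of the 3 DMSO samples, with the colour scale ending at 1.3 in either direction. ULK1, GPNMB, GABARAPL1 and WIPI1 are red in all vemurafenib and combination samples, TFEB is red with vemurafenib but not with the combination, and tretinoin 1 differs from the other tretinoin samples in TFEB, CTSZ, TPP1 and NPC1.

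The transcription factors came first. TFEB (chr6:41683978-41736259, GRCh38), which drives lysosomal and autophagy genes when it enters the nucleus, was read at 48.9, 39.1 and 45.8 normalised counts in the DMSO samples and at 86.3, 76.5 and 70.6 with vemurafenib. Normalised counts are counts scaled by TMM to the mean library. The 3 vemurafenib samples lay above every other sample, since the combination samples read 40.8, 38.6 and 44.2 and the tretinoin samples 18.5, 42.0 and 37.6. TFEB rose by 0.80 with vemurafenib (SE 0.212, adjusted p = 0.00423) and was lower with the combination than with vemurafenib alone by a log2 difference of -0.92 (SE 0.207, adjusted p = 0.013). The combination samples overlapped the DMSO samples and differed from them by -0.12 (log2, SE 0.227, adjusted p = 0.693). TFEB was the least abundant of the 45 genes, with raw counts between 14 and 92, and the difference between the combination and vemurafenib lost its call without vemurafenib replicate 1, vemurafenib replicate 2 or combination replicate 2 (log2 differences from -0.98 to -0.84 and adjusted p from 0.000911 to 0.0828 over 18 alternatives).

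TFE3 (chrX:49028726-49043486), its paralog with the same binding motif, was far more abundant. It read 1643, 1804 and 1616 normalised counts with DMSO, 1530, 1602 and 1458 with tretinoin, 1770, 1647 and 1811 with vemurafenib, and 1504, 1508 and 1575 with the combination. No comparison of TFE3 passed the test, and its log2 difference between the combination and vemurafenib was -0.19 (SE 0.0670, adjusted p = 0.157). Scaled to exon length and library size (FPKM), TFE3 stood at 21.8 ± 1.31 with DMSO and TFEB at 0.437 ± 0.0493 (SD, n = 3).

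Of the 4 regulators of TFEB and the Rag GTPases, FLCN and FNIP1 rose with vemurafenib, where 26.4% of all genes were higher. FLCN rose with the combination, where 27.1% were higher. None of the 4 was lower, where 26.3% and 26.5% of all genes were. FLCN (folliculin) and its partner FNIP1 form a GTPase-activating complex for RagC and RagD, through which mTORC1 is directed to TFEB. FNIP1 (chr5:131641714-131797063) read 283, 242 and 311 normalised counts with DMSO, 403, 400 and 344 with vemurafenib, and 331, 311 and 327 with the combination. All vemurafenib samples lay above the DMSO samples, whereas the combination overlapped them. FNIP1 rose by 0.45 with vemurafenib (SE 0.106, adjusted p = 0.00157), and the combination differed from DMSO by 0.21 (log2, SE 0.106, adjusted p = 0.108). FLCN rose by 0.41 with vemurafenib (adjusted p = 0.00876) and by 0.43 with the combination (adjusted p = 0.00635), with 11.9% of its exon bases inside other genes. The log2 fold changes of FNIP2, a paralog of FNIP1, and of RRAGD, which encodes RagD, were between -0.20 and -0.01 in the 3 comparisons against DMSO and none was called.

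The group of membrane proteins, the calcium channel and cholesterol transport had 2 of 6 genes higher and 1 lower with vemurafenib. With the combination, 3 were higher and 0 lower. Of all genes tested, 26.4% were higher and 26.3% lower with vemurafenib, and 27.1% and 26.5% with the combination. GPNMB (chr7:23235967-23275108), a glycoprotein of melanosomes and lysosomes and a known MITF target, read 2147, 2101 and 2104 normalised counts with DMSO. It read 4020, 4022 and 4022 with vemurafenib and 3624, 3962 and 3945 with the combination. These 6 samples lay far above the DMSO and tretinoin samples (2273, 2043 and 2036 in the latter), and GPNMB rose by 0.93 with vemurafenib (SE 0.0650, adjusted p = 2.7e-09) and by 0.86 with the combination (SE 0.0650, adjusted p = 6.01e-09). LAMP2, a structural protein of the lysosomal membrane that serves chaperone-mediated autophagy, rose by 0.26 with vemurafenib (adjusted p = 0.0146) and by 0.27 with the combination (adjusted p = 0.0111). LAMP1, the other abundant membrane protein, rose by 0.17 with the combination (adjusted p = 0.0304), and its log2 fold change with vemurafenib was 0.07 (adjusted p = 0.367). The LAMP1 call was kept in 11 of 18 alternatives (adjusted p from 0.000316 to 0.16), and was lost with a replicate block, without the low-count filter, and without DMSO replicate 1 or 3, vemurafenib replicate 1 or combination replicate 2 or 3. That of LAMP2 was lost without DMSO replicate 1 in both comparisons, without vemurafenib replicate 2 for vemurafenib and without combination replicate 2 for the combination.

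The cholesterol exporters NPC1 and NPC2 did not follow LAMP2. NPC2 (chr14:74476192-74494177), the soluble carrier that hands cholesterol to NPC1, read 832, 881 and 822 normalised counts with DMSO and 953, 1072 and 1087 with tretinoin. It read 779, 700 and 729 with vemurafenib and 842, 846 and 974 with the combination. NPC2 was thus highest with tretinoin and lowest with vemurafenib, with no overlap between either group and DMSO. It rose by 0.30 with tretinoin (SE 0.0790, adjusted p = 0.0342) and fell by 0.20 with vemurafenib (SE 0.0800, adjusted p = 0.0445), and each of these calls was kept in 8 of 18 alternatives. Under total-count scaling the vemurafenib value of NPC2 was -0.00. NPC1, the membrane transporter, had log2 fold changes of 0.29 with tretinoin and -0.27 with vemurafenib, neither of them called (adjusted p = 0.165 and 0.0741), and its tretinoin value was 0.09 without tretinoin replicate 1.

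Of the 7 proteases, 3 were higher and 1 lower with vemurafenib (26.4% and 26.3% of all genes). With the combination, 5 were higher and 1 lower (27.1% and 26.5% of all genes). CTSD (chr11:1752752-1764573), the aspartic protease cathepsin D, read 1606, 2018 and 1465 normalised counts with DMSO, 2012, 1650 and 1737 with tretinoin, 1953, 2135 and 2308 with vemurafenib, and 2588, 2477 and 2380 with the combination. The vemurafenib samples overlapped the DMSO samples through the high DMSO replicate 2, and the combination samples lay above all others. CTSD rose by 0.33 with vemurafenib (SE 0.103, adjusted p = 0.012) and by 0.55 with the combination (SE 0.103, adjusted p = 0.00022). The vemurafenib call was lost without DMSO replicate 1 or 3 or vemurafenib replicate 3 (adjusted p up to 0.0883 over 18 alternatives). The counting ignored strand, and 52.7% of the exon bases of CTSD lie within overlapping genes. CTSA (protective protein/cathepsin A, which stabilises neuraminidase and β-galactosidase, 28.5% of exon bases shared) rose by 0.27 and 0.46 with vemurafenib and the combination, and CTSF (cathepsin F) by 0.44 in either comparison. CTSB (cathepsin B) and TPP1 (tripeptidyl peptidase 1) rose with the combination, by 0.24 and 0.41, with log2 fold changes of 0.08 and 0.33 with vemurafenib (adjusted p = 0.352 and 0.0553). Both combination calls were lost without combination replicate 2 or 3, and that of TPP1 also without DMSO replicate 2.

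The cysteine protease cathepsin L moved the other way. CTSL (chr9:87725519-87731393) read 3164, 3304 and 3157 normalised counts with DMSO, 2259, 2306 and 2214 with vemurafenib, and 2401, 2302 and 2245 with the combination. With tretinoin it read 2236, 3371 and 3501, so that replicate 1 sat among the vemurafenib samples and the others above DMSO. CTSL fell by 0.51 with vemurafenib (SE 0.113, adjusted p = 0.00115) and by 0.47 with the combination (SE 0.113, adjusted p = 0.00197). Its tretinoin log2 fold change was -0.08 with all replicates and 0.10 without replicate 1, and neither was called. CTSZ (cathepsin Z) had the same outlying sample, at 2461 normalised counts with tretinoin 1 against 4042 and 4003 in the others. With all replicates and the low-count filter, CTSZ was not called in any comparison with DMSO.

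Of the glycosidases and their activator, 4 of 7 were higher and 1 lower with vemurafenib (26.4% and 26.3% of all genes). With the combination, 5 were higher and 1 lower (27.1% and 26.5% of all genes). NEU1 (chr6:31857659-31862906), the lysosomal sialidase, read 617, 717 and 710 normalised counts with DMSO and 677, 756 and 702 with tretinoin. It read 949, 908 and 953 with vemurafenib and 1092, 1181 and 1183 with the combination. The groups stepped upward with no overlap from DMSO and tretinoin to vemurafenib and then to the combination. NEU1 rose by 0.46 with vemurafenib (SE 0.0750, adjusted p = 6.78e-05) and by 0.76 with the combination (SE 0.0750, adjusted p = 1.84e-07), and was higher with the combination than with vemurafenib by 0.30 (SE 0.0730, adjusted p = 0.0214). The last difference was called in 13 of 18 alternatives (adjusted p from 0.0025 to 0.133) and was lost without any 1 of the 3 vemurafenib replicates and without combination replicate 2 or 3.

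PSAP, the precursor of the saposins that present lipids to glycosidases, was the most abundant of the 45 genes (FPKM 256 ± 4.77 with DMSO). It rose by 0.31 with vemurafenib (adjusted p = 0.000566) and by 0.44 with the combination (adjusted p = 1.65e-05). GAA (acid α-glucosidase, which degrades glycogen) rose by 0.24 and 0.37, and GLB1 (β-galactosidase, 10.0% of exon bases shared) by 0.34 and 0.42. GUSB (β-glucuronidase) rose by 0.21 with the combination, a call lost without DMSO replicate 3 or combination replicate 3 and without the low-count filter. HEXA (the α subunit of β-hexosaminidase) had log2 fold changes of 0.23 and 0.28 that were not called. GLA (chrX:101397803-101408012), the α-galactosidase, was the exception. It read 936, 1073 and 978 normalised counts with DMSO, 826, 765 and 834 with vemurafenib, and 727, 865 and 822 with the combination, with no overlap with DMSO. GLA fell by 0.30 (SE 0.0780, adjusted p = 0.0037) and by 0.31 (SE 0.0780, adjusted p = 0.00313).

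The v-ATPase is the proton pump that acidifies the lysosome. Of its 7 genes, 1 was higher, 1 lower and 5 not called with vemurafenib, and the counts were the same with the combination. Of all genes tested, 26.4% were higher and 26.3% lower with vemurafenib, and 27.1% and 26.5% with the combination. ATP6V1A (chr3:113747019-113812056), the catalytic subunit of the cytosolic V1 sector, read 1402, 1577 and 1536 normalised counts with DMSO, 2171, 2082 and 2006 with vemurafenib, and 2033, 2016 and 2115 with the combination. ATP6V1C1 (chr8:103021063-103073051), which links V1 to the membrane-bound V0 sector, read 1459, 1486 and 1464 with DMSO, 1088, 1156 and 1161 with vemurafenib, and 1113, 1023 and 1030 with the combination. Both genes separated these groups from DMSO without overlap, in opposite directions. ATP6V1A rose by 0.47 with vemurafenib (SE 0.0830, adjusted p = 0.00013) and by 0.45 with the combination (SE 0.0830, adjusted p = 0.000192), while ATP6V1C1 fell by 0.37 (SE 0.0630, adjusted p = 8.87e-05) and by 0.48 (SE 0.0630, adjusted p = 5.72e-06). The other genes were ATP6V0A1 and ATP6V0D1 of the V0 sector, ATP6V1B2 and ATP6V1H of the V1 sector and the accessory subunit ATP6AP1, whose log2 fold changes against DMSO were between -0.15 and 0.16 and not called.

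**Figure D2:**
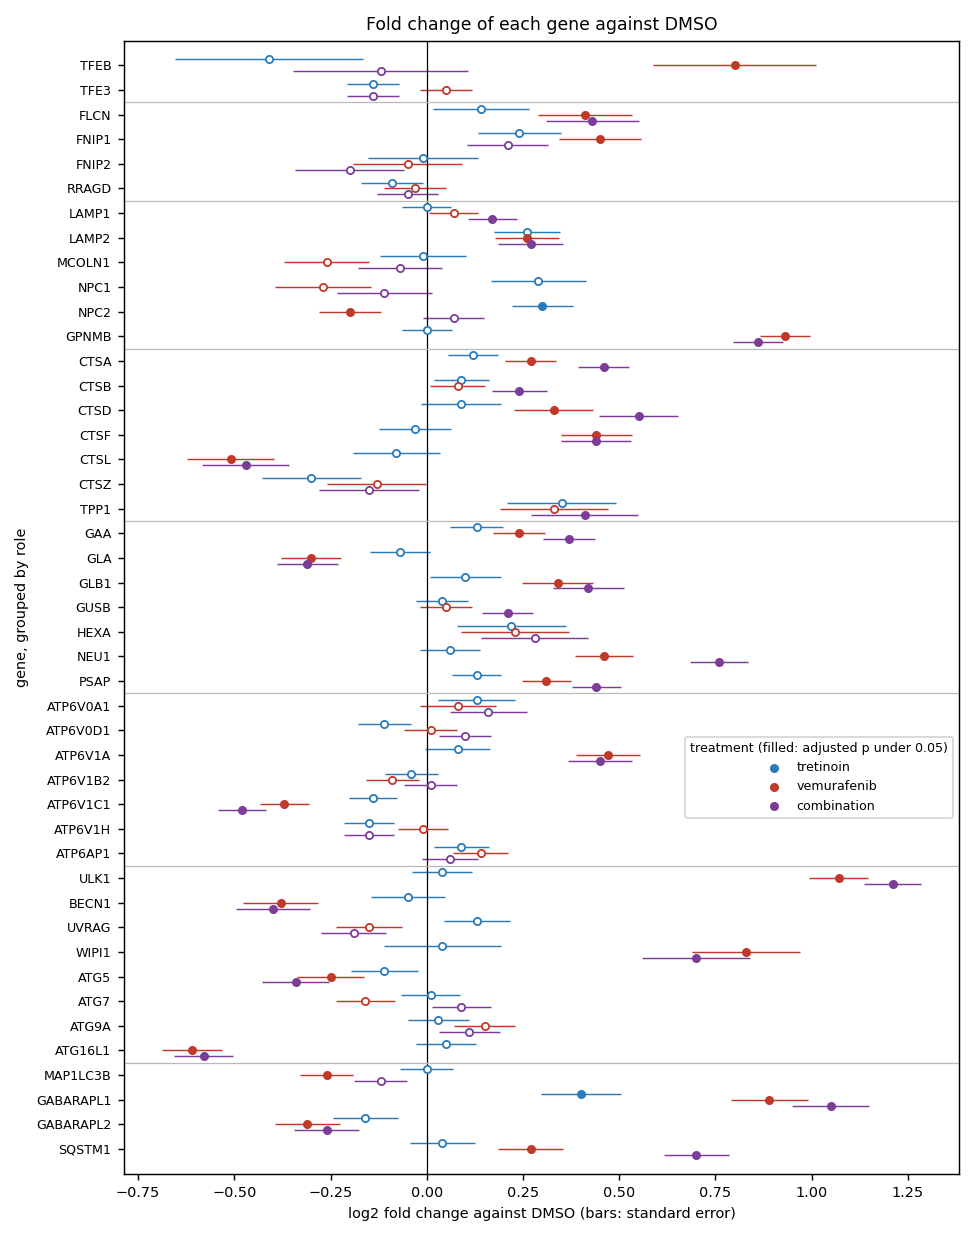
Log2 fold change of each of the 45 genes against DMSO (x axis, bars are standard errors) with tretinoin, vemurafenib and the combination, where filled points have an adjusted p under 0.05 and grey lines separate the roles. ULK1 lies furthest to the right at 1.07 with vemurafenib and 1.21 with the combination, ATG16L1 furthest to the left at -0.61 with vemurafenib, and only NPC2 and GABARAPL1 have filled tretinoin points.

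Of the 8 genes that start and extend the autophagosome, 2 were higher and 3 lower with vemurafenib (26.4% and 26.3% of all genes). The numbers were the same with the combination (27.1% and 26.5% of all genes). ULK1 (chr12:131894651-131923167), the kinase that initiates autophagy under the control of mTORC1 and AMPK, read 576, 585 and 530 normalised counts with DMSO and 620, 549 and 567 with tretinoin. It read 1113, 1221 and 1213 with vemurafenib and 1387, 1263 and 1257 with the combination. The vemurafenib and combination samples lay above the others without overlap, and the log2 fold changes were 1.07 (SE 0.0760, adjusted p = 2.78e-09) and 1.21 (SE 0.0750, adjusted p = 5.18e-10). WIPI1, a phosphoinositide-binding protein of the growing membrane, rose by 0.83 and 0.70 (adjusted p = 8.07e-05 and 0.000417), with raw counts between 62 and 191 and 28.1% of exon bases shared with other genes.

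ATG16L1 (chr2:233210051-233295674), which carries the ATG5 and ATG12 conjugate to the membrane where LC3 is attached, gave the largest fall of the 45 genes. It read 896, 834 and 975 normalised counts with DMSO and 929, 915 and 952 with tretinoin, against 625, 547 and 601 with vemurafenib and 569, 615 and 623 with the combination. The last 6 samples lay below all of the first 6. ATG16L1 fell by 0.61 with vemurafenib (SE 0.0780, adjusted p = 4e-06) and by 0.58 with the combination (SE 0.0770, adjusted p = 6.37e-06). Its partner ATG5 fell by 0.25 and 0.34 (adjusted p = 0.0215 and 0.0033), the former call being lost without DMSO replicate 2 or 3. BECN1 (beclin 1, a subunit of the lipid kinase complex that marks the membrane, 17.1% of exon bases shared) fell by 0.38 and 0.40 (adjusted p = 0.00291 and 0.00195). UVRAG, another subunit of that complex, ATG7, the E1-like enzyme of LC3 and ATG12 conjugation (18.1% shared), and ATG9A, the scramblase that supplies membrane (38.8% shared), had log2 fold changes between -0.19 and 0.15 and were not called.

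Of the 3 proteins that coat the autophagosome and 1 cargo receptor, 2 were higher and 2 lower with vemurafenib (26.4% and 26.3% of all genes). With the combination, 2 were higher and 1 lower (27.1% and 26.5% of all genes). GABARAPL1 (chr12:10212458-10223130), a GABARAP family member conjugated to the autophagosome membrane, read 359, 341 and 322 normalised counts with DMSO and 371, 492 and 477 with tretinoin. It read 654, 645 and 595 with vemurafenib and 768, 674 and 680 with the combination. Each treated group lay above DMSO, and the order of the groups from DMSO through tretinoin and vemurafenib to the combination had no overlap. GABARAPL1 rose by 0.40 with tretinoin (SE 0.104, adjusted p = 0.0311), by 0.89 with vemurafenib (SE 0.101, adjusted p = 9.54e-07) and by 1.05 with the combination (SE 0.100, adjusted p = 1.12e-07). The difference between the combination and vemurafenib was 0.16 (SE 0.0950, adjusted p = 0.499).

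Its relatives GABARAPL2 and MAP1LC3B were lower or not called against DMSO. GABARAPL2 (chr16:75566351-75577881), of the same family, read 1664, 1710 and 1549 normalised counts with DMSO, 1299, 1273 and 1394 with vemurafenib, and 1470, 1363 and 1282 with the combination, all of the latter below DMSO. It fell by 0.31 with vemurafenib (SE 0.0850, adjusted p = 0.00517) and by 0.26 with the combination (SE 0.0850, adjusted p = 0.0159), the latter call being lost without DMSO replicate 2 or combination replicate 3. MAP1LC3B, the most used LC3 marker of autophagosomes, fell by 0.26 with vemurafenib (adjusted p = 0.00449), and the combination differed from DMSO by -0.12 (log2, adjusted p = 0.158). MAP1LC3B shares 411 bases at 98.54% identity with MAP1LC3B2, which had between 17 and 34 counts per sample. Per length, GABARAPL1 stood at an FPKM of 4.61 ± 0.246 with DMSO and 9.58 ± 0.710 with the combination, below GABARAPL2 at 29.9 ± 1.52 and 25.0 ± 1.72 and MAP1LC3B at 18.7 ± 1.01 and 17.2 ± 0.940 (SD, n = 3).

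SQSTM1 (chr5:179806398-179838078), which encodes p62, the receptor that brings ubiquitinated cargo to LC3 and is itself degraded by autophagy, read 8579, 9594 and 8423 normalised counts with DMSO and 7849, 9649 and 9888 with tretinoin. It read 10524, 10473 and 10993 with vemurafenib and 14923, 13771 and 14462 with the combination. The combination samples lay above all others and the vemurafenib samples lay between them and the rest. SQSTM1 rose by 0.27 with vemurafenib (SE 0.0840, adjusted p = 0.0133) and by 0.70 with the combination (SE 0.0850, adjusted p = 2.13e-06). The vemurafenib call was lost in 3 of 18 alternatives, without DMSO replicate 1, DMSO replicate 3 or vemurafenib replicate 3 (adjusted p up to 0.0743). SQSTM1 was higher with the combination than with vemurafenib by 0.43 (SE 0.0840, adjusted p = 0.00403), and this call was kept in all 18 alternatives (adjusted p from 1.16e-05 to 0.0355). Other genes cover 22.0% of its exon bases, among them MRNIP, with between 117 and 381 counts per sample.

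**Figure D3:**
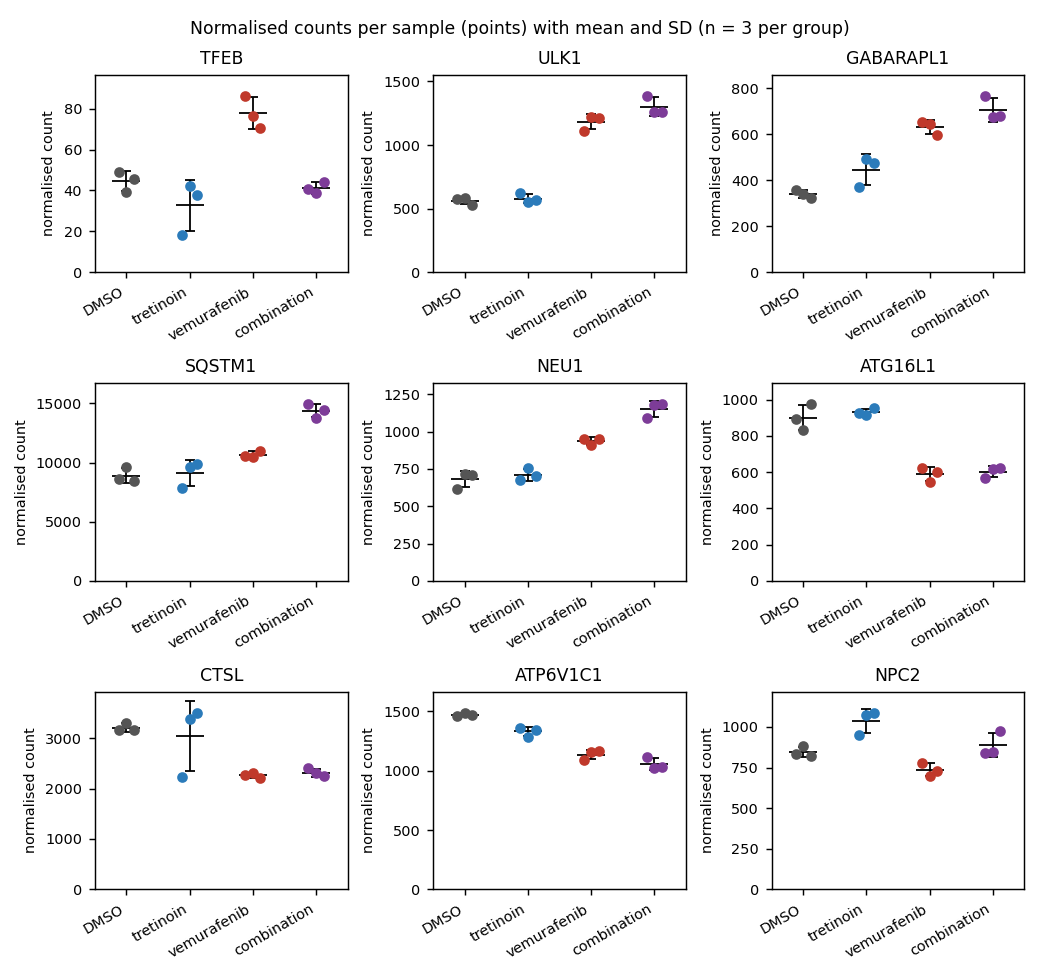
Normalised counts (y axis, starting at 0) of 9 genes in each sample (points) by treatment, with the mean and SD of 3 replicates in black. TFEB is raised with vemurafenib alone (86.3, 76.5 and 70.6), SQSTM1 and NEU1 are highest with the combination, ATG16L1 and ATP6V1C1 are lower with vemurafenib and the combination, and tretinoin 1 is low for TFEB and CTSL.

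Adding tretinoin to vemurafenib changed few of these genes. The combination was higher than vemurafenib for 2 of 45 genes (SQSTM1 and NEU1) and lower for 1 (TFEB), where 2.27% of all genes were higher and 2.2% lower. The median log2 difference was 0.05, against 0.00 over all genes. Without tretinoin replicate 1, which belongs to neither group but enters the fit, 6 genes were called in this comparison, with CTSA, NPC2 and ATG7 added to the 3. Against tretinoin alone, the combination was higher for 16 genes and lower for 9, where 24.1% of all genes were higher and 25.0% lower. ULK1 led these at 1.17 and ATG16L1 was lowest at -0.63. Without tretinoin replicate 1, 18 genes were higher and 8 lower than with tretinoin, with ULK1 at 1.22 and ATG16L1 at -0.63. The shares of all genes called without that replicate are not given, so its counts cannot be set against them.

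The interaction asks whether the change with both drugs differed from the sum of the changes with each drug on the log2 scale. None of the 45 genes passed (0 higher and 0 lower by edgeR, and 0 by DESeq2), where 0.382% of all genes were higher and 0.424% lower by edgeR. An unadjusted p under 0.05 was reached by 5 of the 45 genes. The shares of all genes are at an adjusted p, so they cannot be set against these 5, which are not calls. These 5 were FNIP1 at -0.49 (SE 0.149, adjusted p = 0.149), SQSTM1 at 0.39 (SE 0.119, adjusted p = 0.15), LAMP2 at -0.25, NEU1 at 0.24 and ATG7 at 0.24. The value farthest below 0 was -0.50 for TFEB (SE 0.321, adjusted p = 0.456). Without tretinoin replicate 1, 0 of the 45 genes passed. FNIP1 then stood at -0.41, SQSTM1 at 0.29 and LAMP2 at -0.16. NEU1 stood at 0.21, ATG7 at 0.28 and TFEB at -0.75 (edgeR adjusted p = 0.217 for TFEB).

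Tretinoin alone raised GABARAPL1 and NPC2 and no other gene of the 45. Without tretinoin replicate 1 the values were 0.51 for GABARAPL1 (adjusted p = 0.000883) and 0.35 for NPC2 (adjusted p = 0.00594). Neither was called without any 1 of the 3 DMSO replicates or without tretinoin replicate 2, when 0 of 45 genes were called, and without tretinoin replicate 3 only NPC1 was called. NPC2 also lost its call without vemurafenib replicate 2 or combination replicate 2, and the GABARAPL1 call was kept in 11 of 18 alternatives. The TFEB value with tretinoin was -0.41 (SE 0.243, adjusted p = 0.325) and -0.17 without replicate 1. Those of the proteases TPP1 and CTSZ went from 0.35 to 0.12 and from -0.30 to -0.10, with no call in either fit. Both were called when the low-count filter was left out (0.33 and -0.31, edgeR adjusted p = 0.0213 and 0.0138).

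A wider list of 118 other genes of the same pathways was described in the same way, of which 115 passed the filter. Vemurafenib raised 44 and lowered 15 of them and the combination raised 50 and lowered 18, where 26.4% and 26.3% of all genes were higher and lower with vemurafenib and 27.1% and 26.5% with the combination. Their median log2 fold change was 0.15 and 0.18, against 0.02 and 0.03 over all genes, and the counts of each list below stand against the same shares. A share among genes of like expression was not taken for these lists. Of 30 other hydrolases and activators, 15 were higher and 1 lower with vemurafenib, and 16 were higher and 3 lower with the combination. CTSO (cathepsin O) rose by 1.43 with vemurafenib (SE 0.233, adjusted p = 6.23e-05) and SMPD1 (acid sphingomyelinase) by 0.84 (SE 0.100, adjusted p = 1.76e-06), while CTSC (cathepsin C) fell by 0.24 (SE 0.0750, adjusted p = 0.0116). Of 17 membrane and sorting proteins that passed, 7 were higher and 3 lower with vemurafenib, and 8 were higher and 3 lower with the combination. They included SLC17A5, the sialic acid exporter sialin, which rose by 1.25 with vemurafenib and by 0.79 with the combination, and was the only gene of the 115 called between the combination and vemurafenib (log2 difference -0.46, SE 0.0980, adjusted p = 0.00869). SORT1 (sortilin) rose by 1.02, and TPCN1, an endolysosomal cation channel, and M6PR, the cation-dependent mannose 6-phosphate receptor, fell by 0.65 and 0.35.

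Of 13 other v-ATPase subunits that passed, 2 were higher and 4 lower with vemurafenib, and 4 higher and 4 lower with the combination. ATP6V0E2 and ATP6AP2 rose by 0.48 and 0.21 with vemurafenib, and ATP6V0B and ATP6V0A2 fell by 0.56 and 0.37. Of 34 other autophagy genes, 13 were higher and 6 lower with vemurafenib, and 13 were higher and 7 lower with the combination. OPTN (the receptor optineurin) and ATG10 (the E2-like enzyme for ATG12) rose by 0.92 and 0.86 with vemurafenib, while ATG101, a subunit of the ULK1 complex, fell by 1.15 (SE 0.154, adjusted p = 7.21e-06) and the protease ATG4D by 0.47. In the same complex, ULK1 rose and ATG101 fell with either treatment. Of 21 other Rag, mTORC1 and MiT family genes, 7 were higher and 1 lower with vemurafenib, and 9 were higher and 1 lower with the combination. MITF rose by 0.88 with vemurafenib (SE 0.102, adjusted p = 1.25e-06) and by 0.64 with the combination (SE 0.102, adjusted p = 4.77e-05), and TFEC by 1.88 on counts of 2 to 16, while RHEB, the GTPase that activates mTORC1, fell by 0.53. With tretinoin, 1 of the 115 genes was higher (LIPA, lysosomal acid lipase, by 0.29) and 2 were lower (ATP6V1E1 and BNIP3, both -0.28), where 3.48% of all genes were higher and 2.2% lower.

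**Figure D4:**
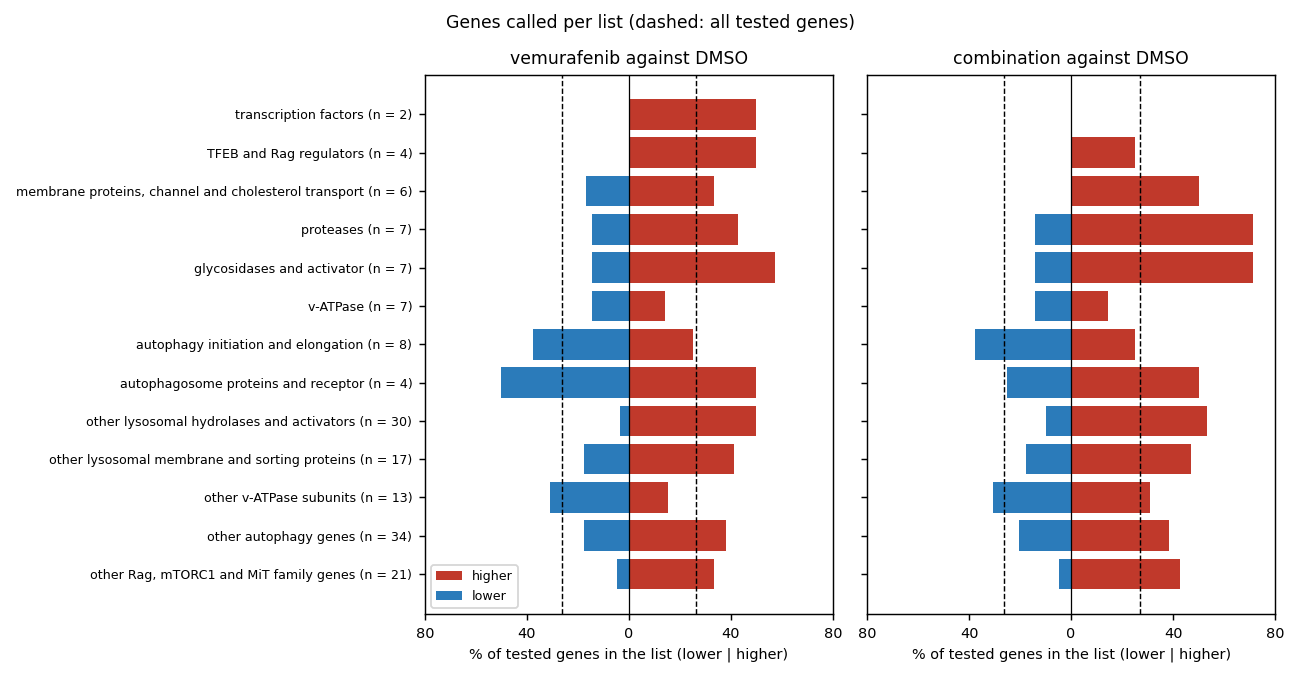
Share of the tested genes in each list (y axis, with its number of genes) that were called higher (right, red) or lower (left, blue) with vemurafenib and with the combination against DMSO, with the shares over all tested genes as dashed lines. The 30 other hydrolases had 15 genes higher and 1 lower with vemurafenib, and both v-ATPase lists had genes called in either direction.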

How the data were processed

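RNA from 12 A375 samples (4 groups of 3, from the labels) was sequenced on a strand-specific poly(A) library. The authors deposited raw counts per gene, made with STAR 2.5.3a on GRCh38.p10 and GENCODE 27 in union mode with strand ignored. These counts were not normalised. Here, genes were filtered with filterByExpr by group, which left 16740, scaled by TMM and fitted over all 12 samples with the quasi-likelihood test of edgeR 4.0.16 (R 4.3.3), with 1 coefficient per group, no block and Benjamini-Hochberg adjustment within each of 6 comparisons (threshold 0.05). DESeq2 1.42.0, other scalings, no filter, 2-group fits, a replicate block and leaving out each replicate were the alternatives. Positions and overlaps came from GENCODE 29 (58084 of 58347 genes matched), near-identical copies from blastn 2.17.0 and promoters from RefSeq (GRCh38.p14). Totals were between 13510235 and 21534377 counts, so genes with few counts, such as TFEB, carry larger errors. The 45 genes and all lists were chosen with earlier results of these data known. Values per sample are given for TFEB, TFE3, the largest rise and fall called in each role with vemurafenib or the combination, and every gene called with tretinoin or between the combination and vemurafenib. From each list of other genes, the 2 largest rises and 2 largest falls called with vemurafenib were named, and MITF. A further gene of the marker list is not reported here.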

Additional observations from a re-analysis of the deposited data

How the results depend on the processing

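No called value of a named gene changed direction under any alternative. With DESeq2, or with DESeq2 size factors in edgeR, every count of called genes among the 45 stayed within 1.5 times. Scaling by total counts alone gave 4 genes higher with tretinoin, 28 higher and 3 lower with vemurafenib, 4 lower with the combination and 5 lower in the combination against tretinoin. Over all genes, 932, 9203 and 9158 genes were then called against DMSO (tretinoin, vemurafenib, combination), and 8322 for the combination against tretinoin. That scaling moved the median of all genes to 0.08, 0.21 and 0.19 against DMSO (tretinoin, vemurafenib, combination), 0.11 for the combination against tretinoin and -0.11 for the interaction, and the share of all calls that were higher from 61.3% to 81.3% with tretinoin, from 49.0% to 60.7% for the combination against tretinoin and from 47.4% to 21.4% for the interaction. Without the low-count filter, GABARAPL1 and TPP1 were higher with tretinoin, NPC2 was not called and 1 gene (CTSZ) was lower. In the interaction, 1 gene (SQSTM1) was then higher. Fitting only the 2 groups compared gave 0 genes higher with tretinoin, 6 higher in the combination against vemurafenib and 5 lower in the combination against tretinoin. With the replicate number as a block, 0 genes were higher with tretinoin. The mean correlation of deviations was -0.031 over 18 pairs of same-numbered samples, against 0.015 for the 36 pairs whose numbers differed. The labels do not say whether same-numbered samples were handled together, and these correlations cannot settle it. The cause of the changes between alternatives was not tested. Leaving out each replicate in turn gave 0 to 2 genes higher with tretinoin, 14 to 20 higher and 7 to 11 lower with vemurafenib, 15 to 20 higher and 6 to 10 lower with the combination, 1 to 5 higher and 0 to 1 lower in the combination against vemurafenib, and 12 to 18 higher and 5 to 9 lower in the combination against tretinoin. The 5 lower came without combination replicate 1. The shares of all genes called in the leave-one-out, 2-group, block and unfiltered fits are not given. A change in these counts can thus not be told apart from a change over all genes. Genes with few counts (TFEB, 14 to 92) limit what these totals can show.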

Other observations

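Some well-known genes of the pathway had almost no counts. GABARAP had between 0 and 17 raw counts per sample and CLN3, a lysosomal membrane protein, between 1 and 9, and neither passed the filter. ATP6V0C, the proton-translocating subunit of the v-ATPase, had between 2 and 19. Other genes cover 55.7% of the exon bases of GABARAP, 30.9% of those of CLN3 and 72.1% of those of ATP6V0C. Counting in union mode leaves out reads that fall on more than 1 gene, and the part of this in the low counts was not tested.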
